A study of Mus musculus with 9 samples.

Results

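The 9 genes described here encode the enzymes of the urea cycle (Nags, Cps1, Otc, Ass1, Asl and Arg1) and 3 enzymes that break down aromatic amino acids (Tat, Hpd and Tdo2). They were taken by platform gene symbol from 22180 genes measured on 9 Affymetrix Mouse Gene 2.1 ST arrays. The genes were chosen by symbol, with no threshold, by an account that already had the log2 differences between the 3 groups in view, so those differences count as values the set was selected on. The differences of these genes are therefore given as a description and not as a test. All samples were of TAMH, a hepatocyte line from mice that carry a transforming growth factor alpha transgene. Of these samples 3 had medium alone (control), 3 had diquat at 18 µM and 3 had paraquat at 126 µM, each for 9 h. Both agents are bipyridylium herbicides that cycle between redox states in cells. The medium of every group held dexamethasone, nicotinamide, insulin, transferrin and selenium, and the doses of the herbicides differed, so compound and dose cannot be told apart. The labels name 3 dishes per treatment and do not state that replicates were separate cultures, so the spread between arrays may be technical.

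The urea cycle turns ammonia from amino acid breakdown into urea and is a defining function of hepatocytes. NAGS makes N-acetylglutamate, the activator without which CPS1 is not active, and CPS1 and OTC work in the mitochondrion before ASS1, ASL and ARG1 complete the cycle in the cytosol. TAT removes the amino group of tyrosine, HPD acts on the product of that step, and TDO2 opens the ring of tryptophan. In liver the Tat and Tdo2 genes are textbook targets of glucocorticoid hormones, and Tat also responds to glucagon through cyclic AMP.

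Levels are log2 values normalized by the authors, and a value of 1 gene's feature is not comparable with that of another. All 9 genes had a feature, 8 of them 1 feature and Nags 2. The mean levels of Cps1, Asl, Nags and Tat lay above the median of all genes (6.42), and those of Otc, Ass1, Arg1, Hpd and Tdo2 below it, where a low level cannot be separated from background. Array medians over all features lay between 5.95 (diquat replicate 3) and 6.04, and correlations between arrays over genes between 0.9952 and 0.9991. Hepatocyte markers were present: albumin, Alb, stood at 12.73 in each group, and the mean level of 10 measured markers was 10.43 to 10.47 on the control, 10.26 to 10.29 on the diquat and 10.19 to 10.32 on the paraquat arrays. Of these 10, 4 were called lower with each agent and 0 higher, where a call is an adjusted p under 0.05 in limma. Of all genes, 2.89% were called lower with diquat and 2.24% with paraquat. Ttr, Apoh and Fga were called with each agent, Apob with diquat and Fgb with paraquat. Fga fell most, by 0.56 and 0.66 on the log2 scale. The leukocyte markers Ptprc and Adgre1 stood at 5.28 to 5.38 and 5.53 to 5.55 by group mean. The third, Cd68, was 1.32-fold higher with diquat, called, and 1.28-fold higher with paraquat, not called. The mean of the 3 leukocyte markers was 6.12 to 6.24, 6.27 to 6.30 and 6.25 to 6.28 on the control, diquat and paraquat arrays. Cholangiocyte markers averaged 7.87 to 7.94, 7.83 to 7.87 and 7.89 to 7.94, with 2 of 4, Krt7 and Krt19, lower with diquat. Stellate cell markers averaged 7.54 to 7.60, 7.37 to 7.57 and 7.48 to 7.57, and endothelial markers 5.57 to 5.67, 5.54 to 5.56 and 5.58 to 5.61, with 0 of 3 called in either list. The part of these shifts in the results below was not tested. In bulk RNA, fewer cells of a type and less RNA per cell cannot be told apart.

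Among the urea cycle genes Cps1 and Nags were lower after treatment, and the other 4 lay within 0.18 of the control mean on the log2 scale. A gene was called where limma's adjusted p over all 22180 genes was under 0.05. With diquat 3 of the 9 genes were called, all lower: Cps1, Nags and Tat. Over all genes 7.02% were called with diquat, 4.13% higher and 2.89% lower. That split, 917 higher and 641 lower, was 1079 and 300 with every array centred on its own median and 924 and 927 after quantile normalization. With paraquat 1 of the 9 was called, Cps1, and it was lower, against 4.57% of all genes called, 2.33% higher and 2.24% lower. All 3 diquat arrays lay below all 3 control arrays for 5 of the 9 genes (Cps1, Asl, Nags, Tat and Tdo2), against 11.2% of all genes, and all 3 paraquat arrays did so for 2 (Cps1 and Nags), against 10.4%. The median log2 difference of the 9 genes from control was -0.13 with diquat and -0.02 with paraquat, and that of all genes was -0.02 and 0.00. Both comparisons use the same control arrays and were known when the set was drawn up, so nothing is read from these counts.

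**Figure D1:**
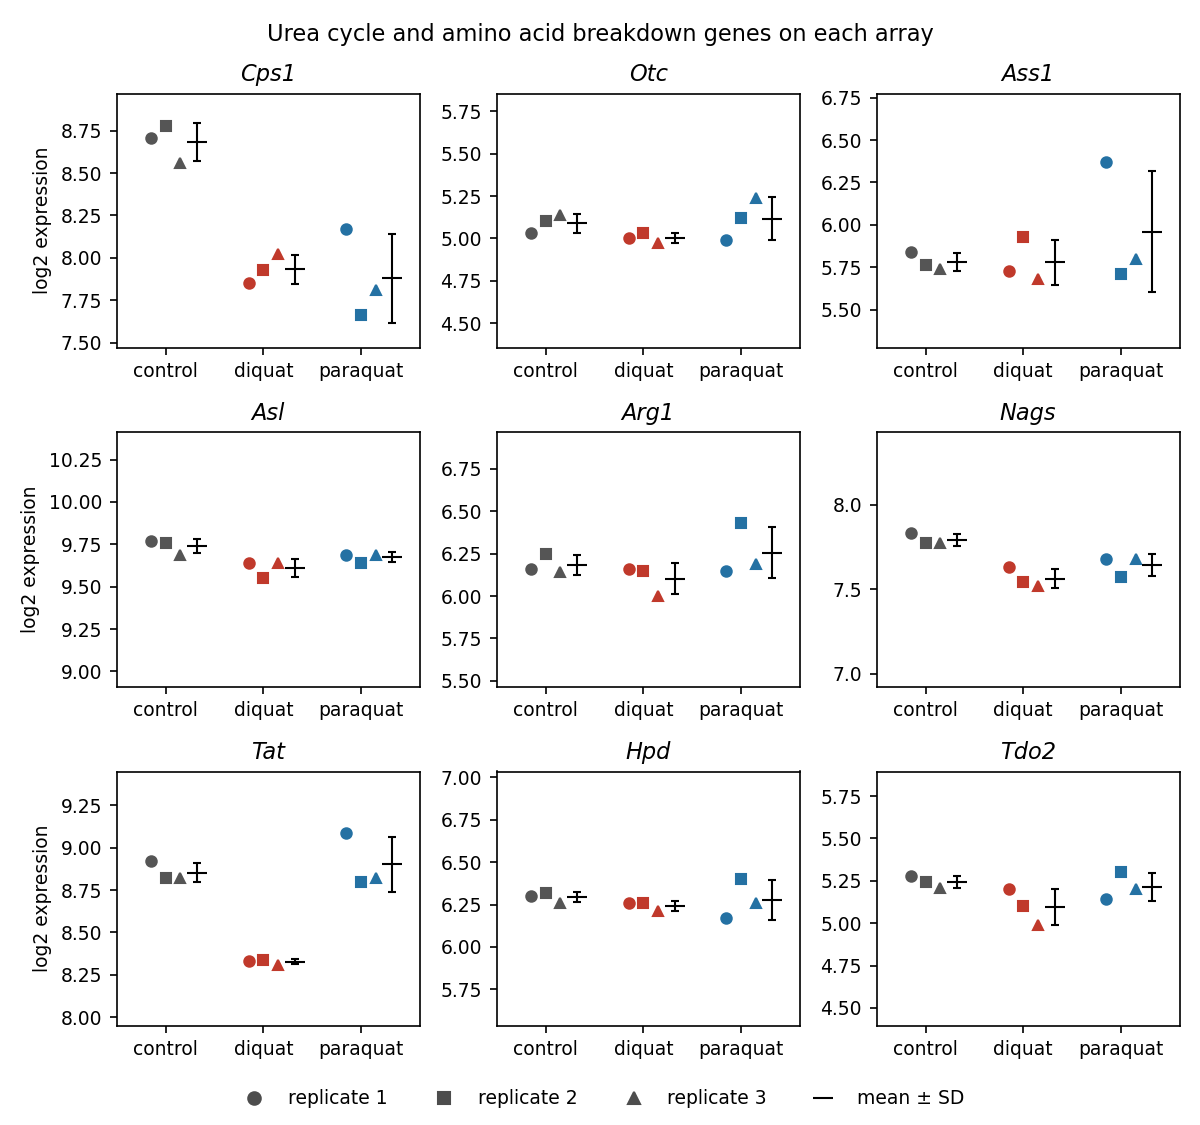
Log2 expression of the 9 genes on each array, by group; symbols mark replicates 1 to 3, black marks the group mean ± SD (n = 3), and every panel spans the same height of 1.5 log2 units. Cps1 is lower with both agents, Tat is near 8.33 with diquat alone, and paraquat replicate 1 stands high for Ass1 (6.37).

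Cps1, which encodes the first and rate-setting enzyme of the cycle, read 8.71, 8.78 and 8.56 on control replicates 1, 2 and 3. It read 7.85, 7.93 and 8.02 on the diquat arrays and 8.17, 7.66 and 7.81 on the paraquat arrays. Every treated array lay below every control array, and the 2 treated groups overlapped. The mean went from 8.68 ± 0.11 to 7.93 ± 0.09 with diquat and to 7.88 ± 0.26 with paraquat (SD, n = 3 each). These are log2 differences of -0.75 ± 0.11 and -0.80 ± 0.11 (SE). The spread within paraquat came mainly from replicate 1, and without it the difference from control was -0.95. Between the agents the difference was -0.05, with a 95% interval of -0.30 to 0.20.

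Nags, the gene for the enzyme that makes the activator of CPS1, read 7.83, 7.77 and 7.77 on the control arrays. It read 7.63, 7.54 and 7.52 with diquat and 7.68, 7.57 and 7.68 with paraquat, so that all 6 treated arrays lay below the 3 controls. The log2 differences from control were -0.23 ± 0.05 and -0.15 ± 0.05 (SE). The diquat difference was called and the paraquat difference was not, and the 95% interval between the agents, -0.02 to 0.18, contained 0. The diquat call was lost without control replicate 1, where the difference was -0.21. A dimmer second feature of Nags gave control readings of 6.80, 6.76 and 6.82, diquat readings of 6.55, 6.62 and 6.68 and paraquat readings of 6.68, 6.71 and 6.48. It lay lower on all treated arrays as well, with differences of -0.18 and -0.17.

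The 4 enzymes that follow CPS1 showed smaller differences. Asl, the argininosuccinate lyase gene, read 9.77, 9.76 and 9.69 in control, 9.64, 9.55 and 9.64 with diquat and 9.69, 9.64 and 9.69 with paraquat. Its diquat arrays lay just below the controls and its paraquat arrays met them, with log2 differences of -0.13 ± 0.04 and -0.07 ± 0.04 (SE). Neither difference was called; of the 14 alternatives run, quantile normalization alone gave a call, for diquat.

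Ass1, which encodes the argininosuccinate synthase, read 5.84, 5.76 and 5.74 in control, 5.73, 5.93 and 5.68 with diquat and 6.37, 5.71 and 5.80 with paraquat. A single array, paraquat replicate 1, stood apart, and the other 8 overlapped. The log2 difference was 0.00 ± 0.14 with diquat and 0.18 ± 0.14 with paraquat (SE), and without paraquat replicate 1 the latter was -0.03. The interval with diquat, -0.32 to 0.32, leaves room for changes larger than that of Nags. Otc, the ornithine transcarbamylase gene, had array values of 4.97 to 5.24. Arg1, the arginase of the cycle, had group means of 6.18 ± 0.06, 6.10 ± 0.09 and 6.26 ± 0.15 in control, diquat and paraquat (SD, n = 3 each). For both genes the groups overlapped or met in every comparison. The log2 differences from control were -0.09 and 0.03 for Otc and -0.08 and 0.07 for Arg1, with diquat and paraquat in that order, and their SE was 0.06 and 0.07.

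Tat and Tdo2 encode the entry enzymes of tyrosine and tryptophan breakdown and are both induced by glucocorticoids in liver. The 250 bases before their RefSeq starts are shown for comparison (GRCm38.p6, each on its gene's strand, 5′ to 3′). Tat lies at chr8:109990186-109990435 on the plus strand and Tdo2 at chr3:81975729-81975978 on the minus strand. Capitals mark matches to the motifs searched.
Tat: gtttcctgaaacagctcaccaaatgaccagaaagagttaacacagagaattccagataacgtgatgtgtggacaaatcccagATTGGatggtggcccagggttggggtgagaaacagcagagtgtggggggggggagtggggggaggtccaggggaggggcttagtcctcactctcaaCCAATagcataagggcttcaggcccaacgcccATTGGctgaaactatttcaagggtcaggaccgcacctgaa
Tdo2: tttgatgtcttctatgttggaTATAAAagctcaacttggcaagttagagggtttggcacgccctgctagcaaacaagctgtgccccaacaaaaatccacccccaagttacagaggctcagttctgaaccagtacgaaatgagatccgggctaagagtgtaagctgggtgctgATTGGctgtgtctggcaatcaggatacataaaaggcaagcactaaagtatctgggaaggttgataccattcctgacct
Both strands were searched for the CCAAT box (CCAAT, in 33.8% of 32851 such windows), the TATA box (TATAAA, 12.4%), the core of a cyclic AMP response element (TGACG, 17.8%) and 1 arm of a glucocorticoid response element (TGTTCT, 16.1%). The search also took a core bound by Onecut factors (ATTGAT, 6.72%) and an ATF4 and C/EBP composite (TGATGNAAT, 0.816%). Tat held 3 CCAAT matches, at 168 to 164 and 40 to 36 bases before the start on the minus strand and at 72 to 68 on the plus strand. Tdo2 held 1 CCAAT match, at 78 to 74 on the minus strand, and 1 TATAAA match at 229 to 224, and no matches overlapped. Windows were matched for 6 of the 9 genes, and those of Otc, Ass1, Nags and Hpd held none of the 6 motifs. A match is a run of letters and not a shown site, and its absence concerns this window only.

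Tat was lower with diquat and not with paraquat. It read 8.92, 8.82 and 8.82 on the control arrays, 8.33, 8.34 and 8.31 with diquat and 9.09, 8.80 and 8.82 with paraquat. Every diquat array lay below every other array, while control and paraquat overlapped. The group means were 8.85 ± 0.06, 8.33 ± 0.02 and 8.90 ± 0.16 (SD, n = 3 each). By mean the order was paraquat, control, diquat, and the first 2 did not differ beyond their spread. The log2 difference from control was -0.53 ± 0.07 with diquat (1.44-fold lower) and 0.05 ± 0.07 with paraquat (SE), with a 95% interval of -0.11 to 0.21 for paraquat.

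Between the agents Tat was 0.58 ± 0.07 higher on the log2 scale with paraquat (SE; 1.49-fold, interval 0.42 to 0.73). No other of the 22180 genes had a larger positive difference in this comparison, and Tat ranked 4 by absolute difference. As the set was drawn up with this difference known, its size and rank are descriptive. In limma's direct comparison 0 of the 22180 genes were called (0.0%), Tat included, and 2371 had an unadjusted p under 0.05. Tat was the only one of the 9 genes whose paraquat arrays all lay above its diquat arrays, against 5.36% of all genes. Paraquat replicate 1 was the highest array for Tat. Without it the difference between the agents was 0.48, with 3 genes called in all, among them Tat, and the difference of paraquat from control was -0.04.

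Hpd, which encodes the dioxygenase after TAT, had control values of 6.30, 6.32 and 6.26, diquat values of 6.26, 6.26 and 6.21 and paraquat values of 6.17, 6.40 and 6.26. The 3 groups overlapped or met, and the differences from control were -0.05 ± 0.05 and -0.02 ± 0.05 (SE) on the log2 scale. Tdo2 read 5.28, 5.24 and 5.21 in control, 5.20, 5.10 and 4.99 with diquat and 5.14, 5.30 and 5.20 with paraquat. Its diquat arrays lay below the controls, the highest of them by little, and the differences were -0.15 ± 0.06 and -0.03 ± 0.06 (SE). Neither gene was called with either agent. The diquat difference of Tdo2 was -0.09 without diquat replicate 3, the array with the lowest median of the 9.

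**Figure D2:**
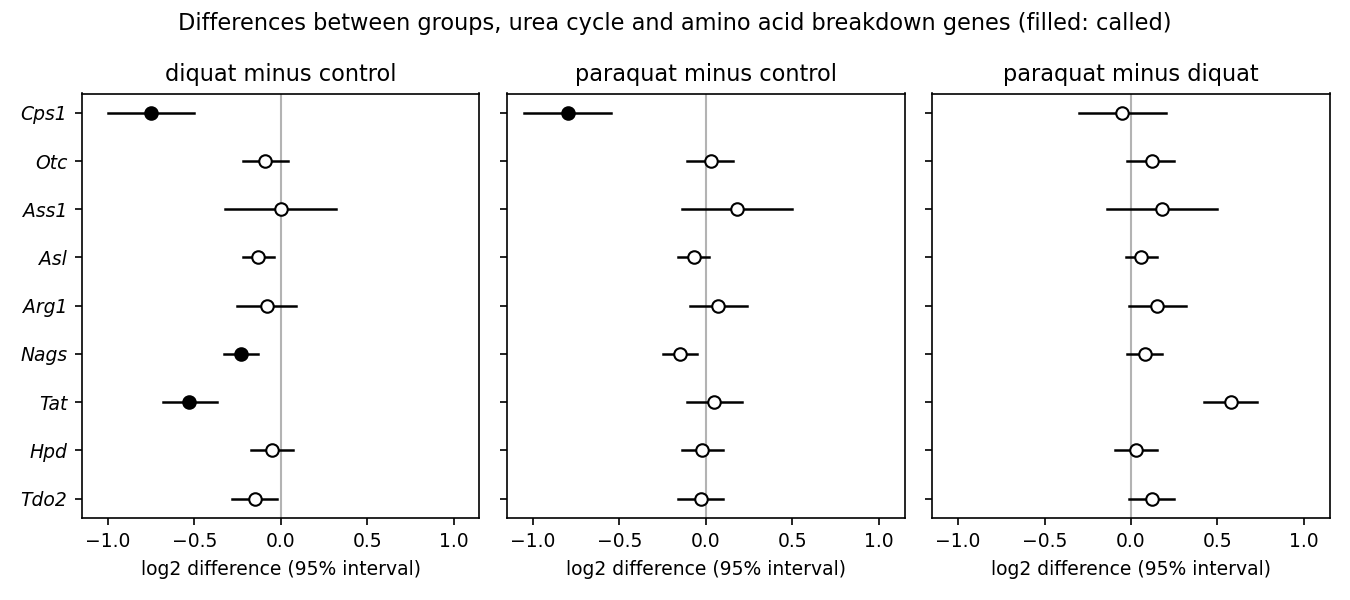
Log2 differences between group means with 95% intervals from limma for the 9 genes, filled where the gene was called over all genes. Cps1 lies at -0.75 and -0.80 against control and near 0 between the agents, whereas Tat lies at -0.53, 0.05 and 0.58.

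Apart from Tat, the direct comparison gave small differences for the set. The other 8 genes lay between -0.05 (Cps1) and 0.18 (Ass1) on the log2 scale, paraquat minus diquat, and the interval of each contained 0. The widest was that of Ass1, -0.14 to 0.50, and the narrowest those of Asl, -0.03 to 0.15, and Nags, -0.02 to 0.18. For Arg1 it was -0.01 to 0.32, for Otc -0.02 to 0.25, for Tdo2 -0.01 to 0.25 and for Hpd -0.09 to 0.15. These intervals do not show that the agents act alike on these genes.

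Genes whose 9 array values followed Tat most closely were named by Pearson correlation over all genes tested, as a description. They were Jph4 (r = 0.976), Gm6637 (0.962), Trav14d-3-dv8 (0.961), Exosc2 (0.952), which encodes an exosome subunit, and the cytochrome P450 gene Cyp2e1 (0.944). Their diquat differences from control, -0.09 to -0.17, were much smaller than that of Tat. Gm6637, Trav14d-3-dv8 and Cyp2e1 lay below the median level of all genes (6.42), where a low level cannot be separated from background. Jph4, for example, read 6.51, 6.52 and 6.51 in control, 6.33, 6.35 and 6.35 with diquat and 6.66, 6.51 and 6.51 with paraquat. It shared with Tat both the low diquat arrays and the high paraquat replicate 1. The 5 genes closest to Cps1 were Msx2 (r = 0.984), Cyp2d22 (0.983), Enpp3 (0.981), the lipopolysaccharide-binding protein gene Lbp (0.981) and the mitochondrial thiolase gene Acaa2 (0.981). They were lower than control by 0.20 to 0.41 on the log2 scale with diquat and by 0.20 to 0.42 with paraquat. Every gene was read on the same 9 arrays in the same 3 groups, so high correlations are easily reached, and the arrays are few.

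**Figure D3:**
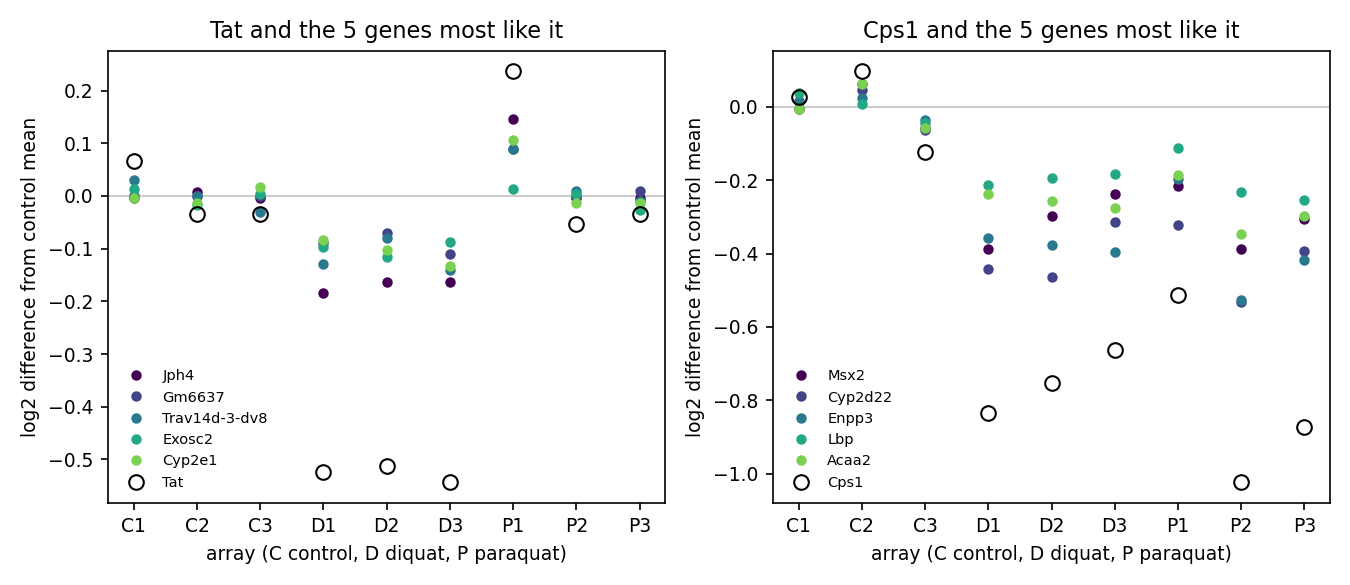
Log2 difference from the control mean on each of the 9 arrays for Tat (left) and Cps1 (right), open circles, and for the 5 genes with the highest correlation to each, small points. Tat and its 5 neighbours are low on the diquat arrays alone, and Cps1 and its neighbours are low on all 6 treated arrays. Gm6637, Trav14d-3-dv8 and Cyp2e1 lie below the median level of all genes.

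The remaining genes of these pathways were taken from lists by function. Their counts stand beside the shares of all genes: 4.13% called higher and 2.89% lower with diquat, and 2.33% and 2.24% with paraquat. The lists were drawn up with earlier results of these data known, so their counts and calls are descriptive. Among 19 measured genes of urea cycle transport, ammonia and glutamine handling, 2 rose and 4 fell with diquat, and 1 rose and 2 fell with paraquat. The cationic amino acid transporter gene Slc7a1, which brings in arginine and ornithine, rose from 9.53 ± 0.06 to 10.25 ± 0.05 and 10.27 ± 0.07 (SD, n = 3 each), by 0.72 and 0.74 on the log2 scale. Slc7a1 was called with each agent. Glul, the glutamine synthetase that captures ammonia outside the cycle, fell by 0.46 and 0.41, and Glud1, the glutamate dehydrogenase that releases it, fell by 0.20 and 0.21. With diquat Slc7a2 also rose, by 0.28, and the glutamine transporter gene Slc38a3 and the ammonia transporter gene Rhbg fell by 0.24 and 0.20. Glud1 and Rhbg were named after their values were seen. Their paraquat values were 0.08, -0.13 and -0.01 for Slc7a2, Slc38a3 and Rhbg, none called. The second arginase, Arg2, was at 0.10 and 0.01 and the ornithine carrier Slc25a15 at -0.01 and 0.00, neither called. The 4 falls with diquat numbered 1 without control replicate 1 or 2, and 2 without control replicate 3 or diquat replicate 1 or after centring. The 2 rises were 1 without any single control array, and the 2 falls with paraquat were 1 without any single array and after centring.

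Of 9 measured genes of phenylalanine and tyrosine breakdown, 1 rose and 0 fell with each agent. The riser was Gch1, the first enzyme in making the tetrahydrobiopterin cofactor of phenylalanine hydroxylase. It rose by 0.65 with diquat and 0.49 with paraquat on the log2 scale. The fumarylacetoacetase gene Fah, the last step of tyrosine breakdown, was at -0.13 and -0.15 and was not called. The count of 0 falls was 1 with each agent under a robust prior with an intensity trend, among genes above the median level, after quantile normalization and with array weights. With diquat it was also 1 without diquat replicate 3. Of 15 genes of tryptophan breakdown, 0 rose, 3 fell with diquat and 4 fell with paraquat. Of the 15, 7 lay above the median level of all genes. A low level of the rest cannot be separated from background, which limits what can be seen for them. The monoamine oxidase gene Maob fell by 0.61 and 0.51, the kynurenine aminotransferase gene Kyat3 by 0.38 and 0.31, and Qprt, which leads from quinolinate to NAD, by 0.29 and 0.34. Aadat, another kynurenine aminotransferase, fell by 0.35 with paraquat and was at -0.29 with diquat, not called. The count with diquat was 5 without diquat replicate 2 or with array weights, and with paraquat it was 2 without paraquat replicate 2 or 3.

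Among 60 genes for the breakdown of other amino acids, 2 rose and 9 fell with diquat, and 2 rose and 8 fell with paraquat. Besides Cth the risers were Sqor with diquat, by 0.28, and Bcat1 with paraquat, by 0.27, both named after their values were seen. The control mean of Bcat1, 6.25, lay below the median level of all genes (6.42), where a low level cannot be separated from background. Cth, the cystathionine lyase that releases cysteine, rose by 0.72 and 0.85 on the log2 scale. Pipox, which oxidizes pipecolate and sarcosine, fell by 0.41 and 0.51, and the hydroxyproline dehydrogenase gene Prodh2 by 0.36 and 0.43. The cysteine dioxygenase gene Cdo1 fell by 0.66 with paraquat and was at -0.32 ± 0.15 (SE) with diquat, not called. The difference between the agents for Cdo1 was -0.34 and was not called. The median of the list was -0.07 with diquat and -0.03 with paraquat. The falls with diquat numbered 5 without control replicate 1. The count was 6 without control replicate 2, against 9. Those with paraquat numbered 3 without control replicate 1 or paraquat replicate 2 and 4 without control replicate 2 or paraquat replicate 3, and the rises with paraquat were 1 without control replicate 1 or 3. The falls with paraquat were 13 with array weights and 5 with the 2 groups alone.

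**Figure D4:**
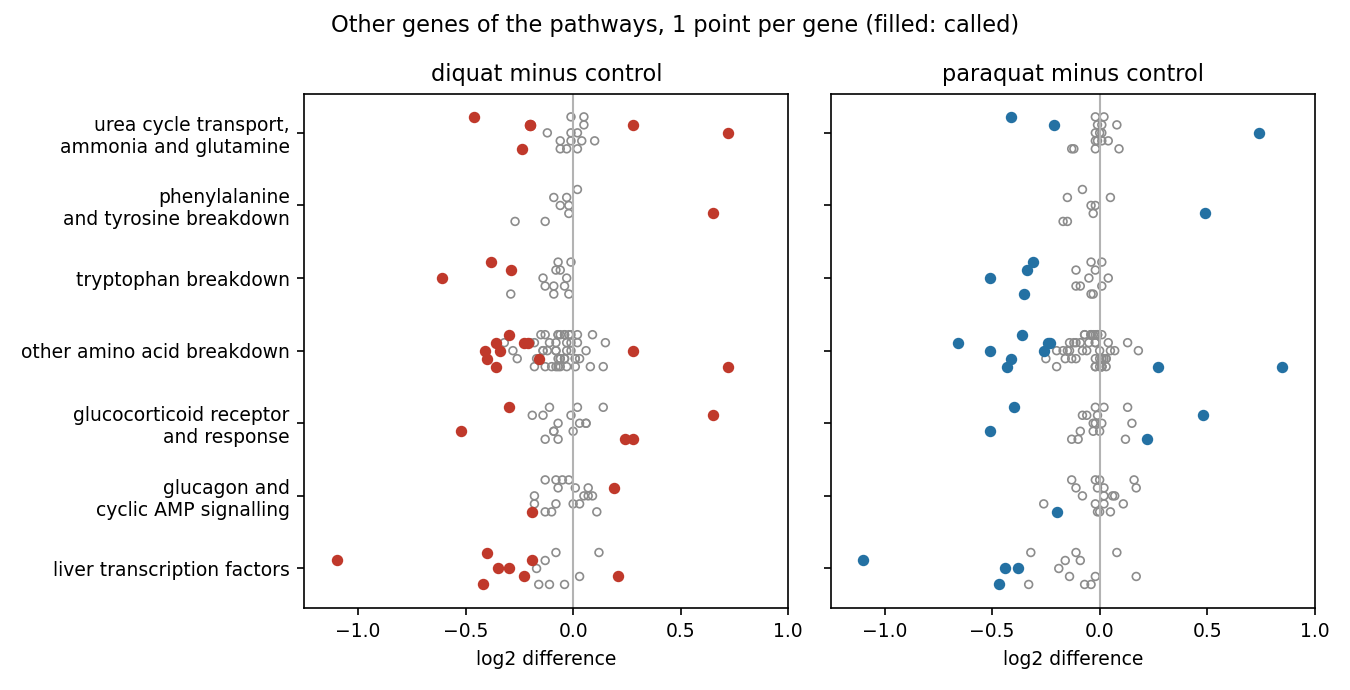
Log2 difference from control with diquat (left) and paraquat (right) for the measured genes of 7 lists, filled where called over all genes. The lists cover the wider pathways, their regulators and glucocorticoid targets. Most points lie within 0.2 of 0; Slc7a1, Cth, Gch1 and Igfbp1 stand to the right and Onecut1 (-1.10 with each agent) to the left.

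Lists for pathways known to act on Tat, Tdo2 and the urea cycle were read in the same way. They hold regulators and also other target genes of glucocorticoids. Of 20 genes for the glucocorticoid receptor and its targets, 3 rose and 2 fell with diquat, and 2 rose and 2 fell with paraquat. After quantile normalization 3 rose and 5 fell with diquat, and without control replicate 2 the counts were 2 and 3. With a robust prior and an intensity trend they were 3 and 3, and with the 2 groups alone 2 and 2. The direction of the majority thus depended on the scaling, the arrays fitted and the prior. The receptor gene Nr3c1 was at -0.01 ± 0.05 and -0.06 ± 0.05, Fkbp5 at -0.13 ± 0.04 and -0.10 ± 0.04, and Tsc22d3 at -0.14 ± 0.05 and -0.01 ± 0.05 on the log2 scale (SE), none called. Zbtb16 fell by 0.30 and 0.40 and G6pc, the glucose-6-phosphatase gene, by 0.52 and 0.51, while Igfbp1 rose by 0.65 and 0.48. The group means of G6pc, 6.19, 5.67 and 5.68, lay below the median of all genes, where a level cannot be separated from background, so the size of its fall is uncertain. Lpin1 rose by 0.28 with diquat and was at 0.12 with paraquat, not called, and the other riser was Angptl4, by 0.24 and 0.22, named after its values were seen. The 2 rises with paraquat numbered 1 without control replicate 1 or paraquat replicate 3 and 0 without any other array of that comparison, and 1 with the 2 groups alone. The 2 falls with paraquat were 1 among genes above the median level, where G6pc was not tested.

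Of 20 genes of glucagon and cyclic AMP signalling, 1 rose and 1 fell with diquat, and 0 rose and 1 fell with paraquat. The shares of all genes were 4.13% higher and 2.89% lower with diquat, and 2.33% and 2.24% with paraquat. These counts are near those shares, so nothing about the list is read from them. The kinase subunit gene Prkaca fell by 0.19 and 0.20, and the coactivator gene Crtc3 rose by 0.19 with diquat. The rise with diquat was called in no fit without 1 array except that without diquat replicate 1. The fall with diquat was lost without control replicate 1 or 2 or diquat replicate 1, and that with paraquat without control replicate 1 or 2 or paraquat replicate 2 or 3. Both falls were also lost after centring, with the 2 groups alone and with the mean of features. Of 16 liver transcription factor genes, 1 rose and 7 fell with diquat, and 0 rose and 4 fell with paraquat. The riser, named after its value was seen, was Cebpb, by 0.21, and it was lost without any single array other than diquat replicate 2. Onecut1 fell from 8.42 ± 0.14 to 7.32 ± 0.07 and 7.32 ± 0.13 (SD, n = 3 each), the bile acid receptor gene Nr1h4 fell by 0.42 and 0.47, and Foxa1 by 0.35 and 0.44. Foxa3 fell by 0.40 with diquat and was at -0.32 with paraquat, not called. Cebpa, which controls several urea cycle genes, was at -0.04 with each agent and was not called, and Hnf4a was at -0.19 and -0.16, called with diquat alone. The falls with diquat numbered 2 without control replicate 3 or diquat replicate 1, 3 without control replicate 2 and 4 without control replicate 1 or diquat replicate 3 or after centring. The count with diquat, against 7, was 9 among genes above the median level and after quantile normalization, and 8 with array weights. The falls with paraquat, against 4, numbered 3 without control replicate 1 or paraquat replicate 2. They numbered 6 without paraquat replicate 1 and 8 with array weights. In the direct comparison 0 genes of these 7 lists were called.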

How the data were processed

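Gene expression in TAMH cells was read on 9 arrays, 3 per group. Groups and replicate numbers follow the titles; the descriptions give the number 1 to replicates 2 and 3 of both treatments. The authors deposited log2 values, made with RMA in Affymetrix Expression Console 1.1 per the submitters' processing notes. RMA subtracts background, equalizes the arrays and combines the probes of a feature, and its settings were not stated. Of 34472 features, 23521 carried 1 platform symbol, 1814 several and 9137 none. Entrez identifiers of 23328 matched RefSeq (GRCm38.p6). Where a gene had several features the one with the highest mean was used, which left 22180 genes. No detection calls were used, and the small number of arrays bounds the precision.

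All 9 arrays entered 1 fit in limma 3.58.1 (R 4.3.3; lmFit and eBayes, 1 mean per group, no covariates), with Benjamini-Hochberg adjustment over the 22180 genes and a threshold of 0.05. The fit was checked on simulated data with known changes and independent normal noise of the spread that the fit had estimated. Such data cannot show effects of scaling, array quality or dependence between dishes. Of simulated log2 changes of 0.3, 71.6% were called in the diquat and 82.1% in the paraquat comparison with control. At 0.5 it was 100% in each. Members and lists were chosen with earlier results of these data known. From each list the text names up to 4 called genes with the largest absolute difference from control, besides 8 fixed genes of which 7 were measured, and the 5 genes most correlated with Tat and with Cps1. Other names were chosen after their values were seen. Promoter windows are from RefSeq. Alternatives changed the replicate block, prior, filter, scaling, arrays fitted and array weights.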

Additional observations from a re-analysis of the deposited data

How the results depend on the processing

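The alternatives were the replicate block, a robust prior fitted with an intensity trend, genes above the median level only, centring, quantile normalization, the 2 groups alone, the mean of a gene's features, array weights and leaving out each array. Of 363 differences of the 9 genes recomputed under them, 0 called values changed sign and 6 moved by more than 1 SD, all 6 without paraquat replicate 1. Cps1 was called in 14 of 14 alternatives with each agent and Tat in 14 of 14 with diquat. The number of the 9 genes called with paraquat was 2 with the mean of features (Cps1 and Nags). Between the agents it was 1, Tat, among genes above the median level and after quantile normalization, and it ranged from 0 to 1 when single arrays were left out (1 without paraquat replicate 1). The Tat difference was 0.48 to 0.63 across these alternatives. The Nags call with diquat was lost after centring (-0.19) and without control replicate 1 (-0.21). With the replicate block 3, 1 and 0 of the 9 genes were called with diquat, paraquat and between the agents, as without it. In the lists the replicate block took the falls in urea cycle transport and ammonia handling from 4 to 2 with diquat and from 2 to 1 with paraquat. It took the 1 fall in glucagon and cyclic AMP signalling to 0 with each agent, the 0 falls in tyrosine breakdown with diquat to 1, and the 7 falls of liver transcription factors with diquat to 5. Same-numbered arrays did not deviate together (correlations from -0.19 to 0.20), so the numbers were not taken as pairs. Centring moved the median difference of all genes with diquat from -0.017 to 0.020 and gave 1079 higher and 300 lower calls, against 917 and 641 as deposited; quantile normalization gave 924 and 927. Calls over all genes with diquat numbered 1558, but 959 with the 2 groups alone and 887, 802 and 1000 without control replicates 1, 2 and 3. Those with paraquat numbered 1014, but 1623 with array weights, 596 and 574 without control replicates 1 and 2, and 575 and 574 without paraquat replicates 2 and 3. Between the agents 0 genes were called, but 4 among genes above the median level, 4 after quantile normalization, 3 without paraquat replicate 1, 1 after centring and 1 without paraquat replicate 2. The cause of these changes was not tested. Low levels of Otc, Ass1, Arg1, Hpd and Tdo2 limit what can be seen for them.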
